A study of Mus musculus with 12 samples.

Results

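Acot3, Cyp4a14 and Angptl4 are liver genes known to respond to fasting and to PPARα, and their expression was followed in the livers of doxorubicin-treated mice. These 3 genes, of 3799 in the deposited table, were chosen by their symbols and for being low in DOX livers, so their lower level in DOX is a description and not a finding. All mice were male C57BL/6J, 8 weeks old. Saline mice, which the labels call vehicle, were injected with saline, and DOX mice received 10 mg/kg doxorubicin intraperitoneally on days 0 and 7. The DOX + K35 and DOX + K27 mice received the same injections and, from day 2, 50 mg/kg of K35 or of its analog K27 into the stomach every other day, while DOX mice received vehicle on that schedule. Livers were taken on day 20, with 3 libraries in each of the 4 groups. Doxorubicin is a DNA-damaging drug that induces senescence, and K35 and K27 came from the study's screen for compounds that dissolve aggregates of the glycolytic enzyme PKM2.

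PPARα is a nuclear receptor that binds fatty acids and fatty acid derivatives and acts on DNA together with the retinoid X receptor. In liver it is best known for the fasting response, in which fatty acids released from fat tissue are taken up, oxidized in mitochondria, peroxisomes and microsomes, and partly turned into ketone bodies. Acot3 is a peroxisomal thioesterase that splits long-chain acyl-CoA into free fatty acid and CoA. Cyp4a14 is a microsomal cytochrome P450 that hydroxylates fatty acids at their omega end. Angptl4 is a secreted protein that inhibits lipoprotein lipase, the enzyme that frees fatty acids from circulating triglyceride. The receptor gene Ppara itself was not analysed here.

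On GRCm38, Acot3 lies on the plus strand of chromosome 12 from 84052144 to 84060402, among the genes Acot2, Acot1, Acot4, Acot5 and Acot6. Cyp4a14 lies on the minus strand of chromosome 4 from 115486200 to 115496142, next to Cyp4a10, Cyp4a31 and Cyp4a32. Angptl4 lies on the minus strand of chromosome 17 from 33773750 to 33781830. The coding sequence of Acot3 was 84.0% identical to that of Acot1 and 85.4% to that of Acot5, with identical stretches of up to 203 and 195 bases. How reads from such stretches were assigned is not given in the sources used here, so the values of Acot3 and its copies are uncertain to that extent. Acot3 also shares 396 exonic bases with Gm49366 on its own strand and 312 with the antisense gene 4732463B04Rik. The coding sequence of Cyp4a14 was 75.4% to 76.1% identical to its 3 neighbours, with identical stretches of at most 32 bases.

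The promoters of Acot3 and its neighbour Acot4 are shown because Acot4, among the genes most like Angptl4 in these livers, holds a match to the element PPARα binds and Acot3 holds none. Over the 12 libraries Acot4 had Pearson r = 0.86 with Angptl4 and 0.90 with Acot3. With the group means removed these were 0.010 and 0.43. That element is a direct repeat of 13 bases, AGGTCANAGGTCA, searched on both strands with up to 2 mismatches in the 250 bases before the RefSeq start of each gene (GRCm38.p6). Capitals mark a match. The windows are chr12:84051894-84052143 for Acot3 and chr12:84038129-84038378 for Acot4, both on the plus strand.
Acot3: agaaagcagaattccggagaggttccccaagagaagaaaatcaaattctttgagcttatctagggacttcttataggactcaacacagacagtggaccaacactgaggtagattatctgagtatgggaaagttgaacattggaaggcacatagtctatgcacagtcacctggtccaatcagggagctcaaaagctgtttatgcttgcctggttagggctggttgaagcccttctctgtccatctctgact
Acot4: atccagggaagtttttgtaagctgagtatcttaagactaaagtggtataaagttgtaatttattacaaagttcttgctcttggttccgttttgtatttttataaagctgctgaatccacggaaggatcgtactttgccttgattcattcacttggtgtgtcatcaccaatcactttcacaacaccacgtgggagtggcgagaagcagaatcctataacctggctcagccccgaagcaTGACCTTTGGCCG
The match of Acot4 lay on the minus strand, from 13 bases to 1 base before the start, and had 2 mismatches. The best fit in the window of Acot3 had 4 mismatches. Among all 27025 promoters searched, 3.18% held a match, and among 59 other PPARα pathway genes with an entry 6 did (10.2%), namely Acot4, Slc25a47, Cd36, Plin2, Apoa2 and Gdf15. A match of letters is a description of this window and not a binding site.

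The libraries differed in composition before any gene was compared. The 13 mitochondrially encoded genes took 48.2% to 61.9% of the summed FPKM (fragments scaled to transcript length and library size) in Saline and 62.2% to 83.3% in DOX, and under K35 and K27 they took 37.9% to 48.7% and 50.01% to 68.0%. The summed level of the 3 hepatocyte markers listed in the table, of 12 chosen (Apob, Cps1 and Cyp2e1), ran from 3210 to 4316 FPKM in Saline and from 562 to 2771 in DOX, and from 4177 to 4477 under K35 and 2234 to 4112 under K27, with no marker at 0. The 6 Kupffer cell markers present, of 11, summed to between 73.4 and 201.5 FPKM in Saline and between 18.5 and 53.0 in DOX, and to 53.1 to 84.3 under K35 and 53.9 to 97.0 under K27. The 4 erythroid markers, of 6, summed to between 330 and 506 in Saline and between 821 and 1135 in DOX, and to 62.2 to 596 under K35 and 452 to 1072 under K27. Between DOX + K35 and DOX, all 3 hepatocyte markers present were called higher and all 4 erythroid markers lower by limma. Of all genes tested, 46% were called higher and 10.7% lower. Also called higher were 4 of 6 Kupffer cell markers and 2 of 2 endothelial cell markers. The 1 lymphocyte marker was called lower, and no stellate cell or neutrophil marker was called. Adipocyte markers were not analysed here. Library B4 of DOX had the largest mitochondrial share and the lowest hepatocyte marker sum. In bulk liver, fewer cells of a type and less RNA per cell cannot be told apart, and the part of these differences in the results below was not tested.

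Acot3 was present in every library. In Saline its FPKM was 48.5, 51.7 and 18.9, and in DOX it was 7.17 (B1), 6.64 (B3) and 5.10 (B4). Under K35 it was 33.8 (C1), 39.6 (C2) and 12.7 (C4), and under K27 it was 52.5, 54.3 and 36.9. The 3 DOX livers lay below all 9 others, and the lowest values of Saline and of DOX + K35 came from 1 liver each. The Saline mean was 39.7 ± 18.1 and the DOX mean 6.30 ± 1.07, with 28.7 ± 14.1 for K35 and 47.9 ± 9.58 for K27 (SD, n = 3 per group). On the log2(FPKM + 1) scale, DOX differed from Saline by -2.36 ± 0.44 (SE), DOX + K35 from DOX by 1.89 ± 0.44 and DOX + K27 from DOX by 2.73 ± 0.44. Ordered by mean, DOX + K27, Saline and DOX + K35 overlapped from each neighbour to the next, and DOX stood apart from DOX + K35.

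Cyp4a14 was the most highly expressed of the 3 genes and the most variable. Its FPKM in Saline was 443.8, 178.8 and 56.0, and in DOX it was 59.5 (B1), 33.1 (B3) and 10.01 (B4). It was 173.4 (C1), 317.8 (C2) and 228.5 (C4) under K35, and 115.8, 230.3 and 118.7 under K27. The lowest Saline liver fell just below the highest DOX liver, so these groups overlapped (with median-ratio scaling they did not, at 59.2 and 57.2), while all 6 compound-treated livers lay above all 3 DOX livers. The Saline mean was 226 ± 198 and the DOX mean 34.2 ± 24.8, with 239.9 ± 72.9 for K35 and 154.9 ± 65.3 for K27 (SD, n = 3 per group). The log2 differences were -2.55 ± 0.68 (SE) for DOX against Saline, 3.04 ± 0.68 for DOX + K35 against DOX and 2.38 ± 0.68 for DOX + K27 against DOX. Library B4 weighed on all 3: without it they were -1.87, 2.36 and 1.70. In the order of the means, DOX + K35, Saline and DOX + K27 overlapped from neighbour to neighbour.

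Angptl4 had the smallest standard error of the 3 genes. Its FPKM was 58.1, 48.3 and 47.4 in Saline, and 15.9 (B1), 10.7 (B3) and 21.2 (B4) in DOX. It was 26.4 (C1), 33.1 (C2) and 42.5 (C4) under K35, and 51.7, 82.3 and 58.8 under K27. DOX lay below DOX + K35, and DOX + K35 lay below both Saline and DOX + K27, without overlap at either step, while Saline and DOX + K27 overlapped. With median-ratio scaling the separation from K35 was lost, since B4 then stood at 34.0 and DOX + K35 ran from 23.9 to 36.4. The Saline mean was 51.3 ± 5.89 and the DOX mean 15.9 ± 5.26, with 34.0 ± 8.07 for K35 and 64.3 ± 16.01 for K27 (SD, n = 3 per group). DOX differed from Saline by -1.67 ± 0.32 (SE) on the log2 scale, DOX + K35 from DOX by 1.07 ± 0.32 and DOX + K27 from DOX by 1.97 ± 0.32.

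**Figure D1:**
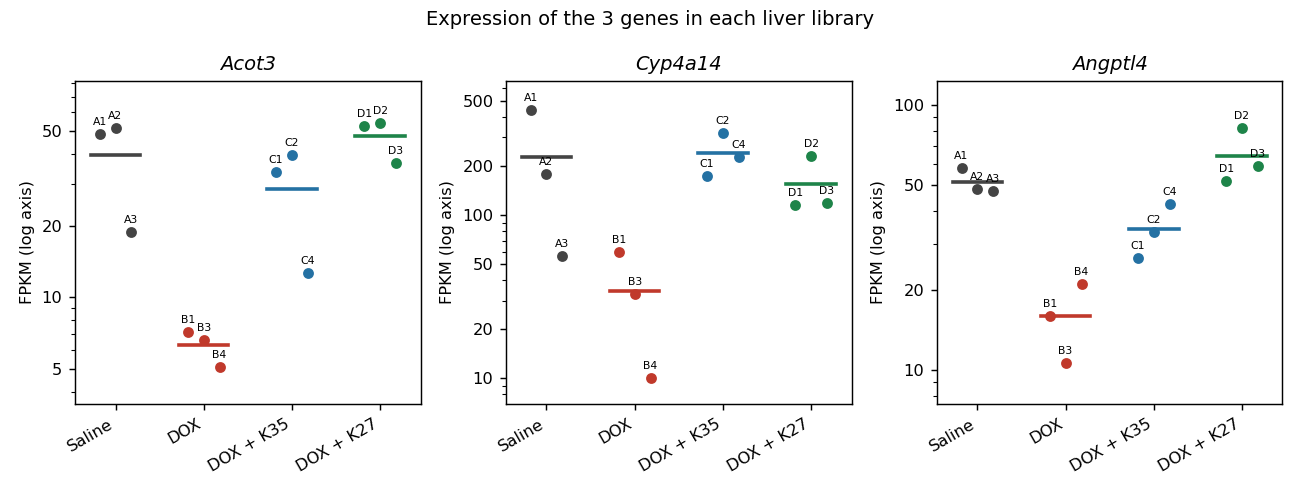
FPKM of Acot3, Cyp4a14 and Angptl4 on log axes in the 3 libraries of each group (points, with library codes) and the group mean (bars). The DOX points of Acot3 and Angptl4 lie below those of every other group, and for Cyp4a14 the Saline library A3 (56.0) lies below the DOX library B1 (59.5).

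The plot of the 3 genes by library sets the groups side by side. Ranges of DOX and Saline were apart for 2 of the 3 genes, where 23% of the 3317 genes tested were lower in DOX in that way. All 3 were higher without overlap under K35 than in DOX, against 44.3% of genes tested, and all 3 under K27, against 15.9%. These shares belong to the contrasts by which the genes were chosen, and the comparisons share the DOX libraries, so nothing was read from them. The deposited genes are labelled as differentially expressed, so shares of all genes tested, here and below, are not shares of the transcriptome. With the mitochondrially encoded genes left out and each library rescaled, DOX differed from Saline by -2.12 for Acot3, -2.29 for Cyp4a14 and -1.41 for Angptl4. With the 20 highest genes left out, the log2 difference of Angptl4 between DOX + K35 and DOX shrank to 0.38.

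**Figure D2:**
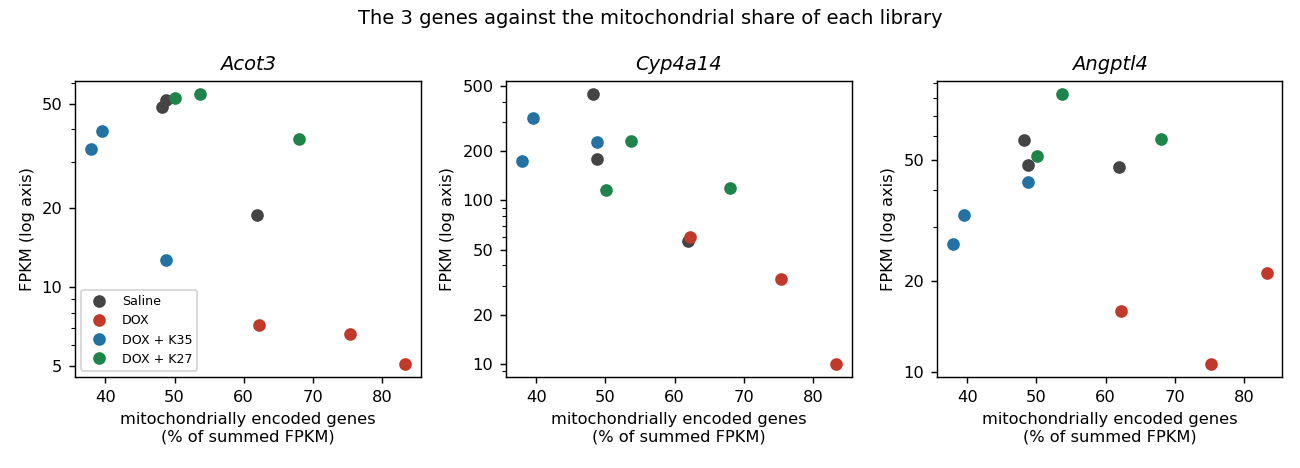
FPKM of each gene (log axis) against the share of mitochondrially encoded genes in the summed FPKM of the library (percent), with 1 point per library and colours for groups. The 3 DOX points sit at 62.2% (B1), 75.3% (B3) and 83.3% (B4). Saline A3 (61.9%) and a DOX + K27 library (68.0%) had more Acot3 and Angptl4 than B1, the DOX library nearest to them in share. For Cyp4a14 that DOX + K27 library (118.7) lay above DOX B1 (59.5), and A3 (56.0) lay below it.

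The plot of the 3 genes against the mitochondrial share sets livers of like mitochondrial share side by side. These livers were not matched on cell type markers, and the part of composition was not tested. Saline replicate 3, with 61.9% mitochondrial signal, held 18.9 FPKM of Acot3 and 47.4 of Angptl4, and DOX B1, with 62.2%, held 7.17 and 15.9. For Cyp4a14 the same pair of livers held 56.0 and 59.5 FPKM. DOX + K27 replicate 3, with 68.0%, held 36.9 FPKM of Acot3, 118.7 of Cyp4a14 and 58.8 of Angptl4.

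The comparison of the compounds with each other, at the same dose and day, rests on the means of the DOX + K35 and DOX + K27 livers and was tested. The Saline and DOX livers entered the fit through its shared estimate of the spread, and leaving out 1 of them at a time moved the limma adjusted p of Angptl4 to between 0.0535 and 0.160. In all, 3 genes were compared in 1 pair of compounds, with limma p-values adjusted by Benjamini-Hochberg over all 3317 genes. Angptl4 differed between K35 and K27 by -0.90 on the log2 scale (95% interval -1.58 to -0.21), lower under K35 with no overlap. This did not pass the threshold of 0.05 (limma adjusted p = 0.118, exact two-sided permutation p = 0.1, the smallest that 3 libraries against 3 allow). In the fit with the replicate number as a block, over 9 libraries, the difference was -1.12 and passed (limma adjusted p = 0.0167). It also passed when B4 and C4 were left out (-1.07, limma adjusted p = 0.0298), a fit added after the data were seen. Leaving out 1 library at a time over all 4 groups gave a limma adjusted p of 0.0535 to 0.317, so none of those fits passed.

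Acot3 differed between K35 and K27 by -0.85 (95% interval -1.78 to 0.086, limma adjusted p = 0.198, exact permutation p = 0.2), with overlapping ranges. Library C4 carried much of it, and without C4 the difference was -0.36. Cyp4a14 ran the other way, 0.66 higher under K35 (95% interval -0.80 to 2.12, limma adjusted p = 0.448, exact permutation p = 0.3), again with overlap. The intervals of Acot3 and Cyp4a14 include 0 and also differences of more than 1 log2 unit, so these 3 livers per group do not show that the compounds act alike on either gene.

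The neighbours of Acot3 are thioesterases of the same family, with Acot1 in the cytosol, Acot2 in mitochondria and Acot4 in peroxisomes. Acot4 was 8.03 to 10.7 FPKM in DOX and 15.9 to 23.6 in Saline, and passed the test between DOX + K35 and DOX (1.04, limma adjusted p = 0.00592). Acot1 ran from 1.11 to 2.64 FPKM in DOX, 1.78 to 15.0 in Saline, 2.38 to 10.5 under K35 and 4.58 to 19.1 under K27, and did not pass in any of the 4 comparisons. Acot2, at 0.530 to 1.90 FPKM in DOX and 2.99 to 6.13 under K27, did not pass either. Of the more distant members, Acot7 rose under K35 (1.22, limma adjusted p = 0.00871), whereas Acot11 and Acot13 differed from DOX by 0.033 and -0.43 under K35 and did not pass. Thus 2 of the 6 thioesterases were called higher under K35 than in DOX, where 46% of all genes tested were. This is no result about the family.

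The neighbours of Cyp4a14 encode fatty acid omega-hydroxylases as well. Cyp4a10 was 33.2 to 96.9 FPKM in DOX and 105 to 391 under K35, and the difference from DOX passed (1.69, limma adjusted p = 0.0202). Cyp4a31 and Cyp4a32 also passed between DOX + K35 and DOX (1.54 and 1.30, limma adjusted p = 0.0146 and 0.0203). In that comparison 46% of all genes tested were called higher, so these calls are no result about the family. Of all 3317 genes, 6 passed for DOX against Saline and 2 for DOX + K27 against DOX. The calls of Cyp4a10, Cyp4a31 and Cyp4a32 were lost in 6, 5 and 8 of 21 alternatives, and leaving out 1 library raised their limma adjusted p to as much as 0.109, 0.0839 and 0.103. For DOX against Saline and under K27 these 3 genes did not pass, with log2 differences from DOX of 1.57, 1.47 and 1.67 under K27 for Cyp4a10, Cyp4a31 and Cyp4a32. Cyp4f15, of a related subfamily, and Aldh3a2, which oxidizes fatty aldehydes, passed in no comparison.

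**Figure D3:**
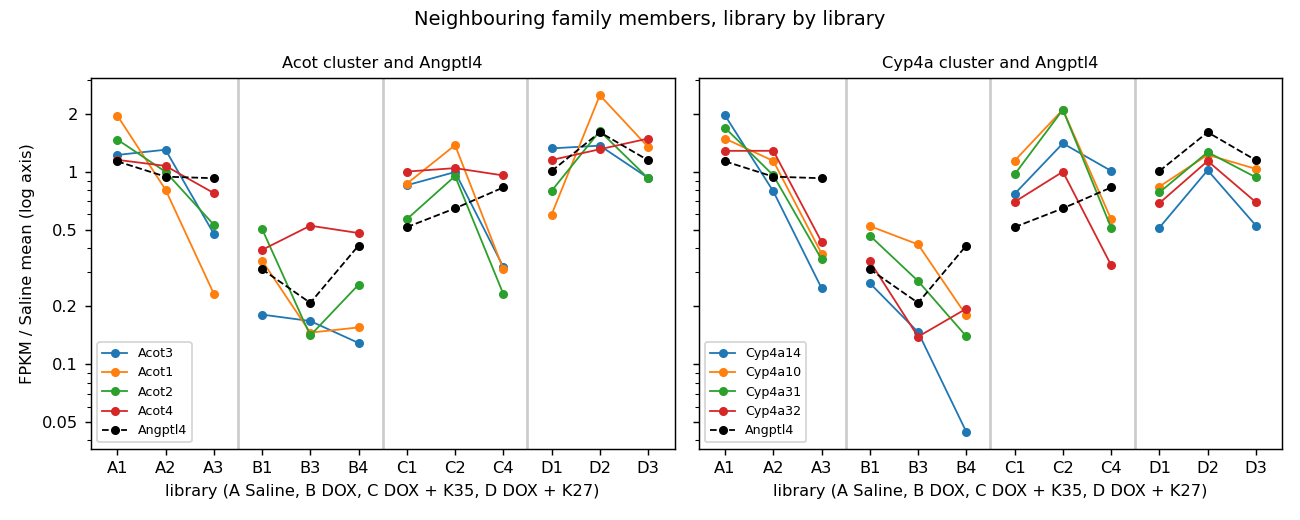
FPKM of the Acot genes (left) and the Cyp4a genes (right), with Angptl4 as a dashed line in both, divided by each gene's Saline mean and drawn on a log axis for each of the 12 libraries. Within Saline and DOX + K35, Acot3, Acot1, Acot2 and the Cyp4a genes other than Cyp4a14 are lowest in A3 and C4, while Angptl4 is highest in C4 among the DOX + K35 libraries.

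The plot of the 2 gene families sets the livers of each group side by side. Acot3 and Cyp4a14 were both lowest in A3 and B4, but under K35 Acot3 was lowest in C4 and Cyp4a14 in C1. Over the 12 libraries, log2 levels of Acot3 and Cyp4a14 correlated with Pearson r = 0.79, and with the group means removed r was 0.58. Acot3 and Angptl4 had r = 0.80 over the libraries and -0.24 with the group means removed, and Cyp4a14 and Angptl4 had 0.62 and 0.081. Acot3 and Cyp4a32, on different chromosomes, had 0.94 and 0.88, and Cyp4a14 and Cyp4a10 had 0.91 and 0.83. With the group means removed, Angptl4 correlated with the 3 Acot and 3 Cyp4a neighbours at between -0.20 and 0.27. The libraries share their group, composition and scaling in all of these values, which are descriptions over 12 points.

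Among the tested genes with a gene symbol, those most like Acot3 by Pearson r over the 12 libraries were Nipal1 (0.943), Cyp4a32 (0.938), Sun2 (0.916), Taok3 (0.914) and Ugcg (0.913). Entries without a symbol were not ranked. For Cyp4a14 they were Dhx40 (0.973), Acadm (0.966), Foxo4 (0.963), Mgrn1 (0.960) and Klf9 (0.956). Acadm, the mitochondrial medium-chain acyl-CoA dehydrogenase, was 23.7 to 76.8 FPKM in DOX and 112 to 147 under K35. For Angptl4 they were Pex11a (0.938), Acot4 (0.856), Eci2 (0.843), Rab30 (0.838) and Sun2 (0.825). Pex11a, which promotes peroxisome division, was 10.8 to 13.3 FPKM in DOX and 21.1 to 24.5 in Saline. The nearest genes of Cyp4a14 had higher r than those of Angptl4.

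The rest of the PPARα pathway list, 80 genes tested of 145 chosen, was set beside the 3 genes. Between DOX and Saline no gene of the list passed by limma, where 0.0301% of all genes tested were higher and 0.151% lower. Of the 80, 60 had an unadjusted limma p under 0.05, against 1572 of all 3317 genes. In DOX 71 of the 80 were lower, against 1994 of all 3317 genes, and 47 were lower without overlap, against 23%. The median log2 difference was -1.07, against -0.34 over all genes tested. All 3 chosen genes lay below it, and nothing is read from this, since they were chosen for being low in DOX. The count moved from 0 to 46 without Saline replicate 3 and to 57 without DOX replicate 1, and stayed at 0 without the mitochondrially encoded genes. The shares of all genes without either library are not given here, so 46 and 57 are no result about the list. With median-ratio scaling 30 list genes were lower and 2 higher, where 729 and 336 of all 3323 genes were.

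Between DOX + K35 and DOX, 41 of the 80 genes were higher and 2 lower, where 46% and 10.7% of all genes passed in those directions. The count of higher genes was near the share of all genes and is no result about the list. The median was 0.97, against 0.46 over all genes, and 32 genes were higher without overlap, against 44.3%. With only the 9 numbered libraries DOX held 1 library (B1). The count then differed widely with and without the block term and is no result about the list. The list genes with the largest differences were Etfdh and Hadha (2.22 and 2.13, limma adjusted p = 0.00581 and 0.00658), which serve mitochondrial beta-oxidation, and Hacl1 (2.16, limma adjusted p = 0.00497), a peroxisomal lyase. Of the receptor's partners, Rxra, the retinoid X receptor, rose by 1.21 and Ppargc1a, a coactivator, by 0.75 (limma adjusted p = 0.009997 and 0.00778). The 2 genes lower under K35 were G0s2, an inhibitor of triglyceride lipase (-1.19), and Gdf15, a secreted stress factor (-0.83), with limma adjusted p = 0.0409 and 0.0489. The calls of G0s2 and Gdf15 were lost in 6 and 11 of 21 alternatives. Cyp4a14 exceeded every gene of the list in this comparison, where the highest was 2.22. Nothing is read from its place, since it was chosen for being low in DOX.

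Between DOX + K27 and DOX no gene of the list passed by limma, where 0.0603% of all genes were higher and 0% lower. An unadjusted limma p under 0.05 was seen for 51 genes of the list, against 973 of all 3317 genes. The median was 1.03, against 0.36 over all genes, and 45 genes were higher without overlap, against 15.9%. Without DOX replicate 1, 52 passed, but the share of all genes in that fit is not given here, so this is no result about the list. Acot3 and Cyp4a14 (2.73 and 2.38) lay above the highest gene of the list, Acot1 (2.08), and Angptl4 (1.97) below it. These places too follow a choice of genes that were low in DOX, so nothing is read from them.

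Between the compounds, no gene of the list was higher and Gdf15 alone was lower under K35 (-1.43, limma adjusted p = 0.0433), where 0.422% and 1.69% of all genes passed. The list's median was -0.01, against 0.09 over all genes, and 24 genes passed with the replicate block. No share of all genes is given here for that fit, so the 24 are no result about the list. Among the 7 secreted factors and lipoprotein proteins tested, the role of Angptl4, 6 were lower under K35, against 1562 of all 3317 genes. Their median was -0.70, and 1 of the 7, Gdf15, passed. Angptl8, a fed-state partner of this family, did not pass (-1.16, limma adjusted p = 0.218).

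**Figure D4:**
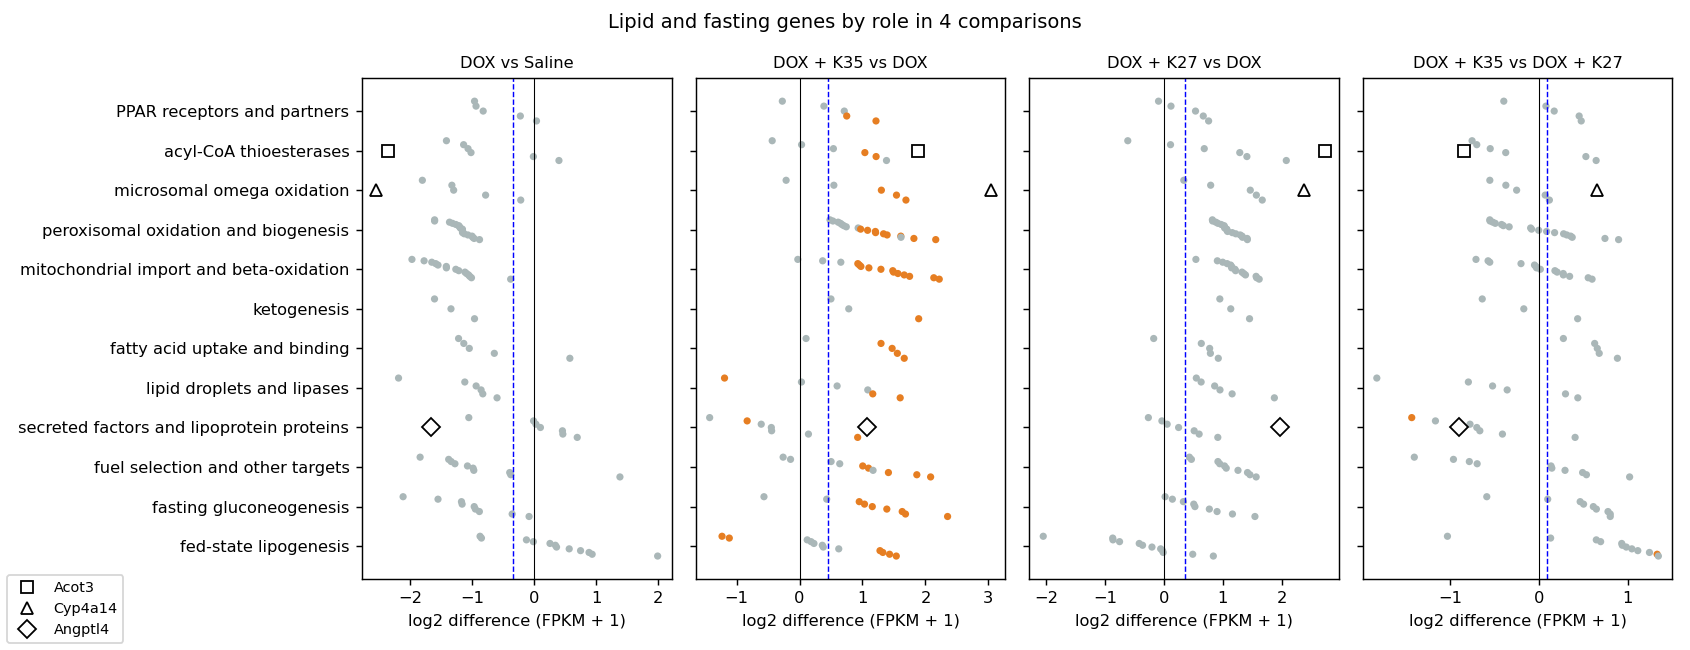
Log2 differences of list genes by role in 4 comparisons (grey points, orange where the limma adjusted p is under 0.05), with the 3 chosen genes as open symbols and the median of all genes tested as a dashed line. Acot3 and Cyp4a14, which were chosen for being low in DOX, lie to the left of their role's genes for DOX against Saline. Angptl4 lies among the lower genes between the compounds, at -0.90.

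Genes of the fasting and fed states were counted for comparison with the 3 fasting-responsive genes. Of 9 gluconeogenesis genes, 7 rose under K35 against DOX, among them Fbp1 (2.35), Pcx (1.68) and Klf9 (1.63), with limma adjusted p = 0.00618, 0.00551 and 0.00578, where 46% of all genes were called higher. None passed by limma for DOX against Saline, under K27 or between the compounds, where 7, 4 and 2 had an unadjusted p under 0.05. Of all 3317 genes, 1572, 973 and 941 did. With the replicate block, 4 passed between the compounds, with no share of all genes given here for that fit. Of 12 lipogenesis genes 4 rose and 2 fell under K35 against DOX, near the 46% and 10.7% of all genes called in those directions, which is no result about the list. Between the compounds their median was 0.96, against 0.09 over all genes, and 11 of 12 were higher under K35, against 1755 of all 3317 genes. Acaca, the first enzyme of fatty acid synthesis, was the gene that passed (1.33, limma adjusted p = 0.0271). With the replicate block 8 of the 12 passed, with no share of all genes given here for that fit. No lipogenesis gene passed between the compounds when replicate 1 or 2 of DOX + K35 or replicate 2 or 3 of DOX + K27 was left out. The plot of list genes by role shows these beside the 3 chosen genes.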

How the data were processed

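Liver RNA-seq of 12 mice was analysed, 3 per group. The deposited table, in which the authors give length-scaled values treated here as FPKM, holds 3799 genes of their selection. Its header names no unit, and TPM would differ by 1 factor per library. The name of the table labels its genes as differentially expressed (DEG), but the comparison and cutoff are not given in the sources used here. Counts, percentages, adjusted p-values and the markers present therefore refer to a set already selected for change. They do not refer to the transcriptome. HISAT2, DESeq2, edgeR and GRCm38 are named in the submitters' processing notes, without roles or versions. The table holds no counts, so the depth per library is unknown. Every column was used. The table's codes B3, B4 and C4 could be matched to a group but not to a replicate number.

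On the log2(FPKM + 1) scale, the 3317 genes that averaged at least 1 FPKM entered a limma 3.58.1 fit (trend) over all 12 libraries, with Benjamini-Hochberg adjustment in each comparison and a threshold of 0.05. The fit was tested on simulated data. The limma p-values set each difference of group means against the spread between livers, pooled over the groups and drawn towards that of other genes. Members and lists were chosen with earlier results of these data known. The genes named are the 3 chosen, their families, up to 3 genes per list with the largest difference between DOX + K35 and DOX, Rxra, and the 5 genes most like each member. Acaca and the genes with a promoter match were named after their values were seen. Of 3519 Ensembl identifiers, all were in GENCODE M21, 3517 with the same symbol. Promoters came from RefSeq, which matched 1 of the 3 genes.

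Same-numbered livers came from different mice, but deviations from the group means correlated at 0.109 to 0.474 in all same-numbered pairs. The r of differently numbered pairs is not given here, so these values alone do not show a pairing. Of the 9 numbered libraries, 5 correlated best with a library of their own number in another group. A fit with the number as a block was used beside the main one, and in it DOX held 1 library (B1). The mitochondrial share rose with the number, from 48.2% to 61.9% in Saline and from 50.01% to 68.0% in DOX + K27. What the block stands for was not tested. R 4.3.3, Python 3.11.15, numpy 2.4.6, pandas 2.3.3, scipy 1.17.1 and matplotlib 3.10.9 were used. Alternatives were no filter, a pseudocount of 0.1, scaling by median ratios, leaving out the 20 highest or the mitochondrially encoded genes, an adjusted p under 0.01, only the 2 groups compared, the block, Spearman's rho and leaving out each library. Leaving out B4 and C4 together, and the numbered libraries without the block, were added after the data were seen.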

Additional observations from a re-analysis of the deposited data

Results flagged for a closer look

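Gdf15, a secreted stress factor, differed between the compounds: it was 2.39, 3.57 and 1.31 FPKM under K35 and 6.88, 6.49 and 10.9 under K27, a log2 difference of -1.43 (limma adjusted p = 0.0433); the threshold was missed in 10 of 21 alternatives. Acaca, the first enzyme of fatty acid synthesis, was 17.2, 16.7 and 23.2 FPKM under K35 and 8.86, 6.04 and 6.03 under K27, a log2 difference of 1.33 (limma adjusted p = 0.0271); it missed the threshold without replicate 1 or 2 of DOX + K35, without replicate 2 or 3 of DOX + K27, and at an adjusted p under 0.01. Neither difference has been tied to Angptl4 or to the other chosen genes, and their relation was not tested.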

How the results depend on the processing

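The 3 chosen genes kept their direction in all 4 comparisons under every alternative run. With the 20 highest genes left out, the log2 difference of Acot3 between DOX + K35 and DOX was 1.23, and those of Angptl4 were -1.11 for DOX against Saline, 0.38 for DOX + K35 and 1.51 for DOX + K27 against DOX. For Cyp4a14, the replicate block gave 1.87 for DOX + K35 against DOX, and the 9 numbered libraries without the block gave -1.45 for DOX against Saline, 1.96 for DOX + K35 and 1.29 for DOX + K27 against DOX. Between the compounds, Angptl4 passed the threshold with the block (-1.12, limma adjusted p = 0.0167), with the numbered libraries alone (-1.07, limma adjusted p = 0.0344) and without B4 and C4 (-1.07, limma adjusted p = 0.0298), and over its alternatives the adjusted p ran from 0.0167 to 0.317. Leaving out 1 library at a time, it ran from -1.07 to -0.71, Acot3 from -1.14 to -0.36 and Cyp4a14 from 0.44 to 0.98. For DOX against Saline these ranges were -2.82 to -2.11 for Acot3, -3.32 to -1.84 for Cyp4a14 and -1.89 to -1.43 for Angptl4. For DOX + K35 against DOX they were 1.59 to 2.37, 2.36 to 3.59 and 0.83 to 1.29, and for DOX + K27 against DOX 2.61 to 2.91, 1.70 to 2.93 and 1.72 to 2.19, in the same order.

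Counts of called genes moved more. Shares of all genes in these settings are not set beside them here, so the counts are no result about the lists. With the block or the numbered libraries alone, DOX held 1 library (B1), so these fits hold no spread within DOX. For DOX + K35 against DOX, their counts differed widely with and without the block term. For the PPARα pathway list, DOX against Saline gave 0 genes, and 32 with median-ratio scaling, 15 without the 20 highest genes, 16 with the block, 1 without B4 and C4, and 0 to 57 leaving out 1 library. DOX + K35 against DOX gave 43, and 21 at an adjusted p under 0.01, 26 without the 20 highest genes, 1 with the numbered libraries alone and 28 to 53 leaving out 1 library. DOX + K27 against DOX gave 0, and 0 to 52 leaving out 1 library, with 52 without DOX replicate 1 and 1 without library C4. The compounds gave 1, and 0 at the stricter threshold or with a pseudocount of 0.1, 3 with median-ratio scaling or without the mitochondrially encoded genes, 4 without the 20 highest genes, 24 with the block, 7 with the numbered libraries alone or without B4 and C4, and 0 to 3 leaving out 1 library. For gluconeogenesis genes, DOX against Saline gave 0, and 3 with median-ratio scaling, 2 without the 20 highest genes or with the block and 0 to 7 leaving out 1 library. DOX + K35 against DOX gave 7, and 0 with the numbered libraries alone and 5 to 7 leaving out 1 library. DOX + K27 against DOX gave 0 to 4 leaving out 1 library, and the compounds gave 4 with the block, 2 with the numbered libraries alone or without B4 and C4, and 0 to 1 leaving out 1 library. For lipogenesis genes, DOX against Saline gave 0, and 2 with median-ratio scaling, 3 without the 20 highest genes, 1 with the block and 0 to 2 leaving out 1 library. DOX + K35 against DOX gave 6, and 1 at the stricter threshold, 3 without the 20 highest genes, 0 with the numbered libraries alone and 2 to 6 leaving out 1 library. DOX + K27 against DOX gave 0, and 1 without the 20 highest genes or with only the 2 groups compared and 0 to 2 leaving out 1 library. The compounds gave 1, and 0 at the stricter threshold, 2 with median-ratio scaling, 8 with the block, 6 with the numbered libraries alone, 7 without B4 and C4, and 0 to 3 leaving out 1 library. Of 31 calls of named genes, 12 were lost with the block and 30 with the same numbered libraries without the block term. The block changed no call of Acot3 or Cyp4a14 between the compounds. Why the counts moved was not tested.

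Of the 5 genes most like Acot3, 1 was shared under Spearman's rho and 3 under median-ratio scaling, and of those most like Cyp4a14, 3 were shared under median-ratio scaling. Scaling moved the median of all genes: with the 20 highest left out it was 0.089 for DOX against Saline, -0.13 for DOX + K35 and 0.0025 for DOX + K27 against DOX, and the list's medians were -0.58, 0.33 and 0.57. The table holds no counts, so counting error could not be given, and with 3 livers per group an exact permutation test cannot go below 0.1. Saline and DOX + K35 each held 1 liver far below the others for Acot3.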
